A study of Mus musculus with 12 samples.

Results

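The mouse miRNAs miR-532, miR-188, miR-362, miR-500 and miR-501 are encoded close together within Clcn5, the X-linked gene of an endosomal chloride/proton exchanger. Their assays were taken by name from TaqMan low-density arrays (TLDA RT-qPCR), a format in which each miRNA is read in its own well. The rule took miR-532-5p, miR-532-3p and miR-188-5p and any assay whose name starts with miR-362, miR-500, miR-501 or miR-660, without star strands. It found 6 of 593 assays, or 6 of the 270 that could be named: miR-532-5p, miR-532-3p, miR-188-5p, miR-362-3p, miR-500 and miR-501-5p. No named assay starts with miR-660. The study profiled 4 successive populations sorted by flow cytometry from the bone marrow of C57BL/6 mice: the stem and progenitor cells named LSK for being lineage negative, Sca1+ and cKit+, followed by promyelocytes, myelocytes and granulocytes in their order of maturation. Each population gave 1 whole cell, 1 cytoplasmic and 1 nuclear RNA sample, each read from 100 ng of RNA per the labels, so that a CT compares equal masses of RNA. The study describes nuclear and cytoplasmic RNA as compared by cell-equivalent volumes instead, and since the deposited values do not settle which input was used, the size of a gap between fractions depends on it. No treatment or genetic change is given for any sample, and the animals' age and whether animals were pooled are not given in the sources used here. With 1 sample per group and 1 well per assay there is no replicate check between stages, the error of a single CT is unknown, and no test was made.

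miRNAs that lie within 1 host transcript can be cut from the same primary RNA by Drosha and then by Dicer, after which each hairpin leaves a 5p and a 3p strand. Either strand may be loaded into an Argonaute protein, which it guides to mRNAs mainly through its seed, the bases from position 2 to position 8. Strands of 1 cluster can therefore share a transcript and still differ in their mature level. miR-188 is known in bone marrow stromal cells for favoring the adipocyte over the osteoblast fate.

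In the RefSeq annotation of GRCm38.p6, 5 miRNA genes lie within the span of Clcn5, in the order Mir500, Mir501, Mir362, Mir188 and Mir532, and these are the genes of the 6 assays. The mature strands on the list that RefSeq holds are shown to let the seeds of the cluster be compared, with the seed in capitals and each strand written 5′ to 3′. They lie on the minus strand of the X chromosome within 10746 bases. The name miR-500 does not state an arm, so both arms of that hairpin are given.
miR-532-3p: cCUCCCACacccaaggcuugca
miR-188-5p: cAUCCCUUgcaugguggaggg
miR-362-3p: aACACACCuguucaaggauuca
miR-501-5p: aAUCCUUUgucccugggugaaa
miR-500-3p: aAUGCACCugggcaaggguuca
miR-500-5p: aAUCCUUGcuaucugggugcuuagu

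miR-532-3p lies at chrX:7248419-7248440, miR-188-5p at chrX:7248031-7248051, miR-362-3p at chrX:7241984-7242005 and miR-501-5p at chrX:7241307-7241328. The arms of miR-500 lie at chrX:7237695-7237716 for the 3p and chrX:7237730-7237754 for the 5p strand. None of these 6 strands had the seed of another, but the seeds of miR-188-5p and miR-501-5p were equal at 6 of 7 positions, as were those of miR-501-5p and miR-500-5p. The seed of miR-532-3p was found in no other of 1679 mature mouse miRNAs in the table. Those of miR-188-5p and miR-362-3p each occurred in 1 other, miR-7061-3p and miR-329-3p. The seeds of both miR-500 arms occurred in strands of the same cluster, miR-501-3p for the 3p arm and miR-362-5p for the 5p arm. None of these other strands has a named assay.

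The CT is the PCR cycle at which a product crosses a set threshold, so 1 cycle less means 2-fold more template at full efficiency. Undetermined wells are listed at 40. Whole cell samples had 259 to 288 assays under 40, cytoplasmic samples 263 to 294 and nuclear samples 199 to 229. As a check of the labels, whole cell miR-223, a miRNA of maturing granulocytes, went from a CT of 24.0 in LSK cells to 16.4 in granulocytes. miR-126-3p, known for its high level in stem cells, went from 24.3 to 27.0. Of the miRNAs listed for other blood cells, miR-150 of lymphocytes had a whole cell CT of 25.1, 28.8, 25.6 and 25.8 from LSK cells to granulocytes. The lymphoid miR-181c and the erythroid miR-451 and miR-144 were not among the named assays. Like whole cell miR-532-5p, whole cell miR-150 had a lower level in promyelocytes than in LSK cells and myelocytes. In cytoplasmic RNA the 2 differed from LSK cells to promyelocytes: the CT of miR-150 went from 24.1 to 29.6, that of miR-532-5p from 31.4 to 29.7. The part of other cells in these levels was not tested. In these bulk samples, fewer cells of a type and less RNA per cell cannot be told apart.

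miR-532-5p had the lowest CT of the 6 assays in each whole cell and cytoplasmic sample and was detected in all 12 samples. Its whole cell CT was 28.1 in LSK cells, 28.8 in promyelocytes, 26.9 in myelocytes and 26.3 in granulocytes. Its lowest level was thus in promyelocytes, and by raw CT myelocytes and granulocytes were above LSK cells and promyelocytes. How far they were above LSK cells depends on the scaling. miR-532-3p, the opposite strand of the hairpin, had a whole cell CT of 30.04, 31.4, 29.5 and 29.3 over the same stages and was also at its lowest level in promyelocytes.

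**Figure D1:**
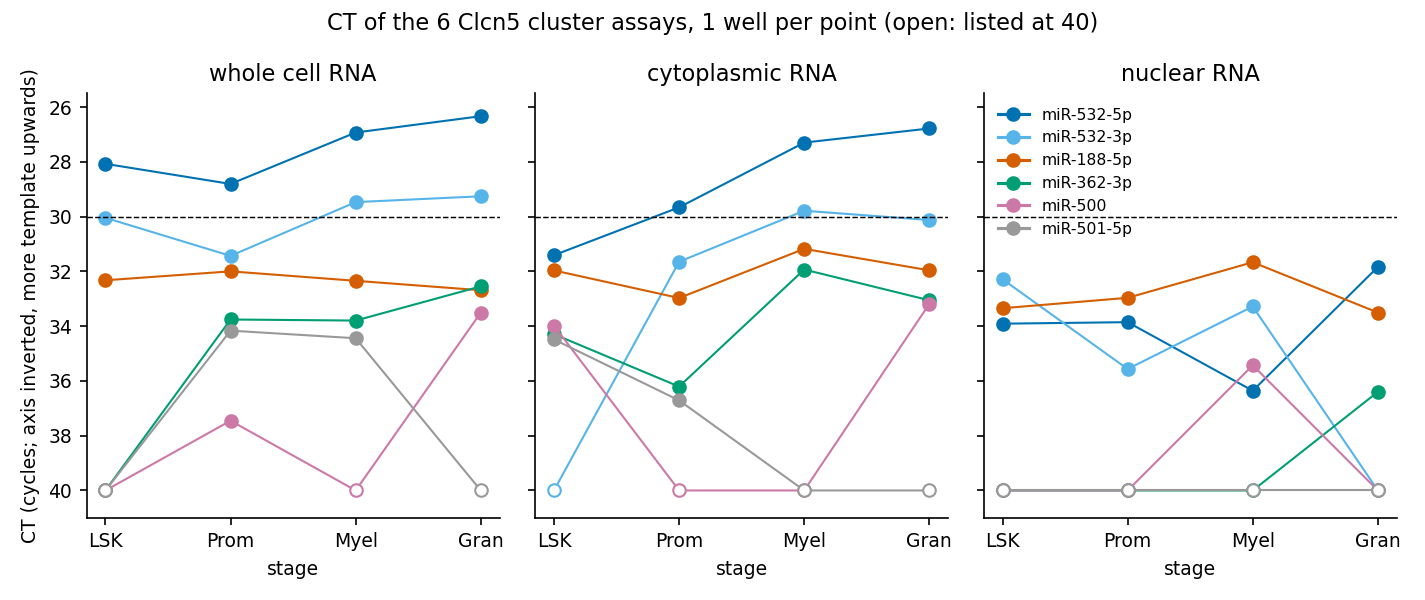
CT in cycles (inverted axis, more template upwards) of the 6 assays in LSK cells, promyelocytes (Prom), myelocytes (Myel) and granulocytes (Gran), with 1 panel per RNA fraction and 1 well per point; open points are wells listed at 40 and the dashed line is a CT of 30. Both miR-532 strands are lowest in promyelocytes in whole cell RNA, while cytoplasmic miR-532-5p runs from 31.4 in LSK cells to 26.8 in granulocytes without a dip.

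Changes in whole cell RNA are log2 values, the CT difference between stages less the mean shift of the 3 assays that end card B. This constant was chosen because the study's fold changes carry it. The study's printed values are headed log 2 but follow a slope of 1.71 per cycle, so their sizes differ from those given here. A change was counted where it reached 2-fold and where the CT was under 30 in at least 1 of both samples. From promyelocytes to myelocytes miR-532-5p rose by 1.89 on this scale, or 3.71-fold, and miR-532-3p by 1.98, or 3.93-fold. Both passed the 2-fold limit, and 38.5% of the 122 assays under the CT limit were 2-fold or more higher and 12.3% lower, with a median log2 change of 0.59 over all 122. In order of size these rises were the 25th for miR-532-5p and the 22nd for miR-532-3p.

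The steps before and after were smaller for miR-532-5p. From LSK cells to promyelocytes its log2 change was -0.98, just short of 2-fold, in a step where 16.5% of 115 assays were 2-fold or more lower, 30.4% were higher and the median assay changed by 0.34. It passed 2-fold, with -1.32, when the mean CT of the named assays was the constant, where the median was 0.01 and 26 of the 115 assays were higher and 23 lower by 2-fold or more. The log2 change of miR-532-3p in this step was -1.64, but its CT was above the limit in both samples, by 0.04 cycles in LSK cells, and at a limit of 32 it would count as a fall. From myelocytes to granulocytes miR-532-5p changed by 0.16 and miR-532-3p by -0.23, so that neither reached 2-fold, as 10.0% of 130 assays did upwards and 6.15% downwards. Without scaling the value of miR-532-3p in this step was 0.21, with the opposite sign. Over the span from promyelocytes to granulocytes the log2 changes were 2.05 for miR-532-5p and 1.75 for miR-532-3p, both past 2-fold, as were 49.6% of 133 assays in this direction and 20.3% in the other. Between LSK cells and granulocytes miR-532-5p was 2.09-fold higher at the end, equal to the median assay of the step, where 51.1% of 135 assays were higher and 16.3% lower by 2-fold or more, and miR-532-3p was 1.08-fold higher. Over this span the rise of miR-532-5p was 3.34-fold without scaling, where 66.7% of assays were higher and 10.4% lower, and 1.17-fold, under the limit, with the mean CT of the named assays, where 37.8% were higher and 25.9% lower. The direction for miR-532-3p depends on the scaling, with a log2 change of 0.79 without it and -0.72 with the named assays.

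In cytoplasmic RNA the CT of miR-532-5p was 31.4 in LSK cells, 29.7 in promyelocytes, 27.3 in myelocytes and 26.8 in granulocytes, so that each stage had more template than the one before it. The CT of miR-532-3p was undetermined in LSK cells and was 31.6, 29.8 and 30.1 in the later stages. Cytoplasmic changes are CT differences without scaling. From LSK cells to promyelocytes miR-532-5p rose by 1.75, or 3.36-fold, from an LSK well above the CT limit of 30. The median of 130 assays in this step was -1.28, with 8.46% higher and 66.2% lower by 2-fold or more, and the rise of miR-532-5p was the 6th largest. The size depends on the scaling: once the 3 card B assays were the constant, miR-532-5p rose 12.1-fold, where the median was 0.57 and 39 of the 130 assays were higher and 20 lower by 2-fold or more. With the mean CT of the named assays it rose 7.56-fold, where the median was -0.11 and 18 were higher and 35 lower. From promyelocytes to myelocytes miR-532-5p rose by 2.37 and miR-532-3p by 1.86, in a step where 56.1% of 123 assays were 2-fold or more higher, 9.76% were lower and the median was 1.22. With the last 3 assays of card B as the constant these changes were 0.69 and 0.19, under 2-fold, where the median was -0.45 and 15.4% of assays were higher and 36.6% lower. With the mean CT of the named assays miR-532-3p, at 0.81, was again under 2-fold, and miR-532-5p, at 1.31, was not. With that constant the median was 0.17, and 30.1% of assays were higher and 24.4% lower.

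From myelocytes to granulocytes the cytoplasmic changes were 0.52 for miR-532-5p and -0.34 for miR-532-3p, both under 2-fold, in a step where 14.2% of 120 assays were higher and 10.8% lower by 2-fold or more. With the last 3 assays of card B as the constant they were -1.07 for miR-532-5p, of the opposite sign, and -1.93 for miR-532-3p, both past the 2-fold limit, where the median was -1.44 and 72.5% of assays were lower and 1.67% higher. From promyelocytes to granulocytes miR-532-5p changed by 2.88, in a span where 59.0% of 122 assays were 2-fold or more higher and 12.3% lower, but by -0.38 with that constant. With it the median was -1.90, and 7.38% of assays were higher and 64.8% lower. With the mean CT of the named assays miR-532-5p changed by 1.78, where 38.5% were higher and 27.0% lower. From LSK cells to granulocytes cytoplasmic miR-532-5p was 24.8-fold higher, the 7th largest rise of 141 assays, of which 34.0% were 2-fold or more higher and 36.2% lower. It was 9.29-fold higher with the last 3 assays of card B as the constant, where the median was -1.65 and 9.93% of assays were higher and 58.9% lower. These folds rest on the LSK cytoplasmic sample.

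**Figure D2:**
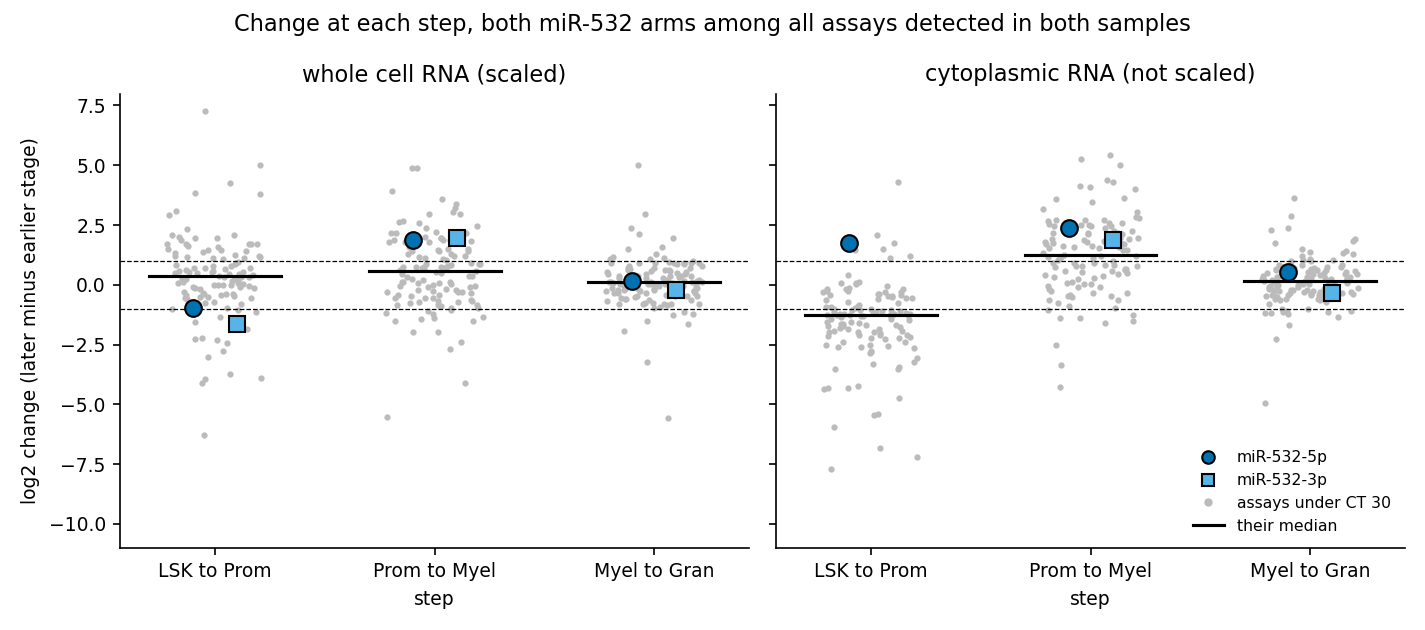
Log2 change at each step in whole cell RNA (left, scaled) and cytoplasmic RNA (right, not scaled): gray points are the assays with a CT under 30 in at least 1 of the 2 samples and under 40 in both, black bars their median, dashed lines 2-fold. miR-532-5p (circle) lies at -0.98 in whole cell and at 1.75 in cytoplasmic RNA for the first step; miR-532-3p (square) was above a CT of 30 in the first whole cell step and is not drawn for the first cytoplasmic step, where its LSK well was undetermined.

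For miR-532-5p the first step thus ran in opposite directions in the whole cell and cytoplasmic samples. The values above set a scaled against an unscaled change, but the signs stayed opposite on like scales. The whole cell and cytoplasmic changes were -0.74 and 1.75 without scaling, -0.98 and 3.60 where the 3 card B assays were the constant, and -1.32 and 2.92 with the mean CT of the named assays. How common this is among the 112 assays under the CT limit in both fractions depends on the scaling, as 68 had opposite signs in this step without it, 17 with card B and 31 with the named assays. Without scaling, miR-532-5p was the only 1 that was lower in whole cell RNA and 2-fold or more higher in cytoplasmic RNA, and it was 1 of 4 such assays with card B and 1 of 3 with the named assays. The gaps between fractions at a stage are differences of raw CT. In LSK cells the cytoplasmic CT of miR-532-5p was 3.34 cycles above the whole cell CT, the largest gap of 241 assays detected in both samples, with 3.15 next and a median of -1.21. In the other stages the gap was 0.86, 0.37 and 0.45 cycles from promyelocytes to granulocytes, against medians of 0.55, 0.10 and 0.45.

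Whole cell miR-532-5p in LSK cells also had more template than both fractions, as its nuclear CT was 33.9. Among the 96 assays of LSK whole cell RNA under the CT limit, 4 had a lower CT in whole cell RNA than in either fraction, and 2 had it by 2 cycles or more, miR-532-5p and miR-574-3p. The CT of miR-532-3p in LSK cells was also lowest in whole cell RNA, with 30.04 in whole cell, 32.3 in nuclear and 40 in cytoplasmic RNA. That of miR-188-5p was not, with 32.32 in whole cell and 31.96 in cytoplasmic RNA. In promyelocytes 91 of 107 assays had their lowest CT in whole cell RNA, so that this order is the rule there and was rare in LSK cells.

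Nuclear miR-532-5p had a CT of 33.9, 33.9, 36.4 and 31.8 from LSK cells to granulocytes, all above the limit of 30. The nuclear:cytoplasmic ratio is 2 raised to the cytoplasmic minus the nuclear CT and divided by 3, the scale of the ratios in the study's supplement, where the reason for the divisor is not given. For miR-532-5p it was 0.0589 in LSK cells, 0.0182 in promyelocytes, 0.000623 in myelocytes and 0.0100 at the granulocyte stage. The median ratio of all assays detected in both fractions was 0.0238, 0.0540, 0.0291 and 0.0689, so miR-532-5p lay above the median in LSK cells and below it in the other stages. In myelocytes its nuclear CT was 9.06 cycles above its cytoplasmic CT. This was the largest gap of 181 assays detected in both samples, the next being 7.94. Assays with an undetermined nuclear well were left out of this order, and their gaps may be larger. The gap of miR-532-5p also rests on a nuclear CT of 36.4, at which the precision of a well is unknown. miR-532-3p in the same myelocyte samples had a gap of 3.50 cycles, at the median of 3.52.

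miR-188-5p kept to a narrower range of raw CT than miR-532-5p. Its whole cell CT was 32.32, 31.996, 32.34 and 32.69 from LSK cells to granulocytes, a span of 0.69 cycles against 2.48 for miR-532-5p and 2.18 for miR-532-3p. This order depends on the scaling. With the card B constant miR-188-5p changed by -1.12 from promyelocytes to granulocytes, against 2.05 for miR-532-5p. With the mean CT of the named assays its whole cell span was wider than that of miR-532-5p. The cytoplasmic CT was 31.96, 32.97, 31.17 and 31.96, and the nuclear CT 33.34, 32.96, 31.66 and 33.50. The cytoplasmic span of 1.80 cycles was below the 4.63 of miR-532-5p and close to the 1.86 of miR-532-3p over its 3 measured stages. All 12 values lie above a CT of 30, so no change was counted, and the stages cannot be told apart within the unknown error of a well. The nuclear:cytoplasmic ratio of miR-188-5p was 0.128, 0.335, 0.238 and 0.114 in the same order of stages. It was above 0.1 and above the median of the stage in all 4 stages, and above that of miR-532-5p in each. The study, however, used 0.1 as a mark of nuclear enrichment for miRNAs with a CT under 30, which miR-188-5p was not. The lower the level of an assay, the smaller the gap that can be measured before its nuclear well is undetermined. The median covers assays of all levels, so these ratios do not show that miR-188-5p was enriched in the nucleus. Ordered from the smallest nuclear minus cytoplasmic gap, miR-188-5p was the 36th of 191, 37th of 188, 22nd of 181 and 48th of 202 assays.

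**Figure D3:**
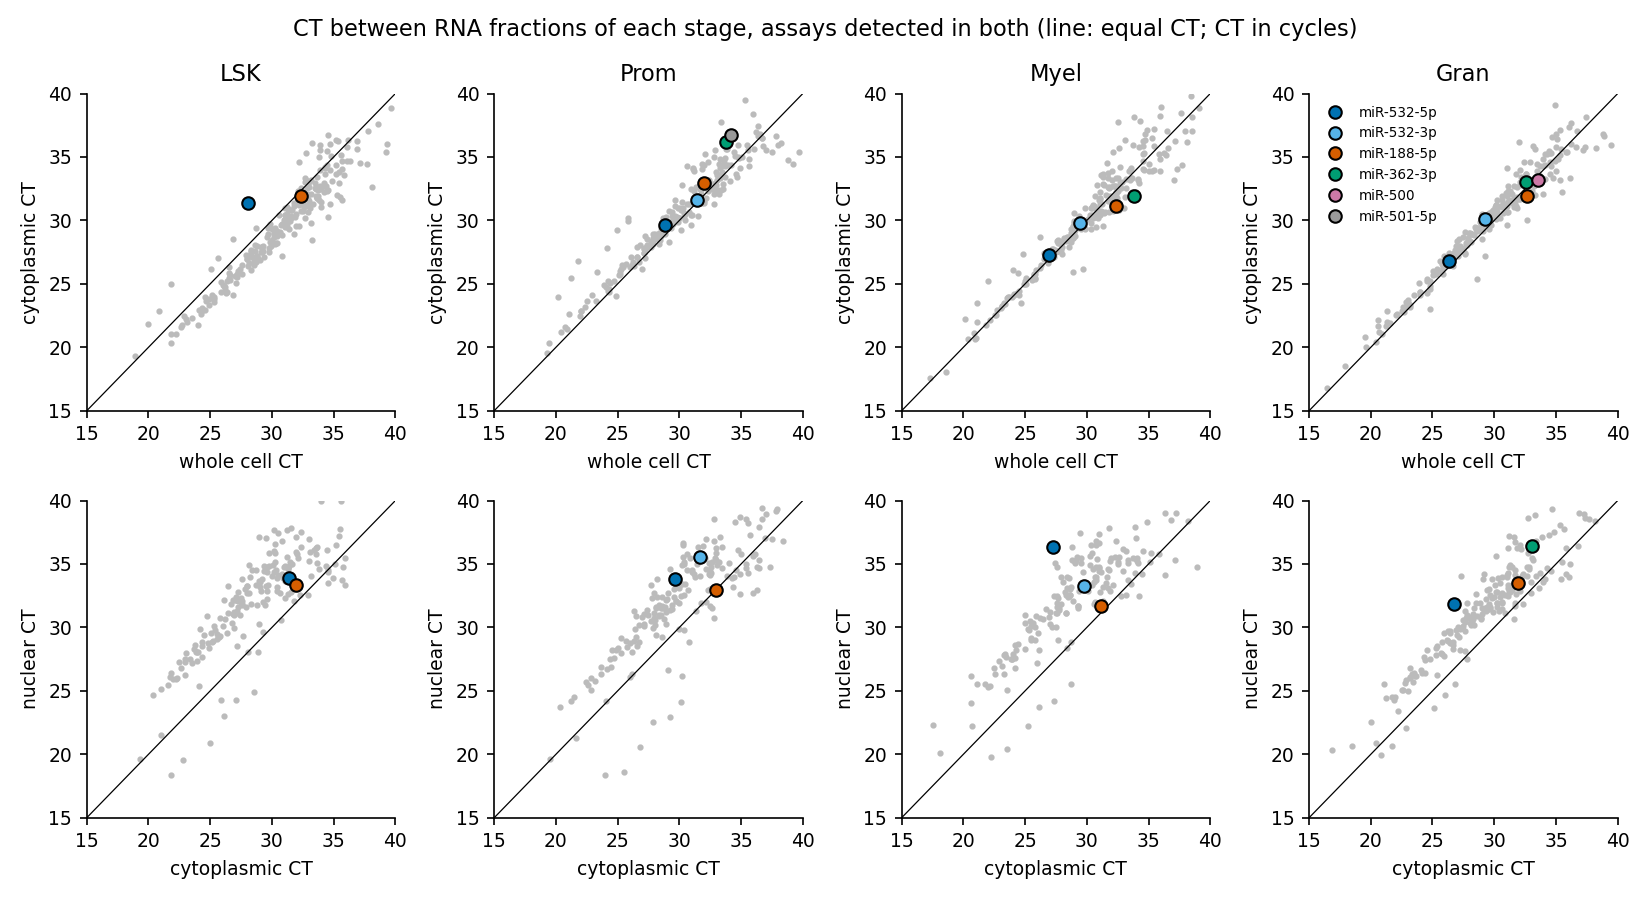
Cytoplasmic against whole cell CT (top) and nuclear against cytoplasmic CT (bottom) in each stage, in cycles; gray points are all assays under a CT of 40 in both samples, colored points the cluster assays, and the line marks equal CT. miR-532-5p stands 3.34 cycles above the line in the LSK panel of the top row and 9.06 above it in the myelocyte panel of the bottom row, while miR-188-5p keeps near the line in the bottom row.

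The strands of miR-532 can be set against each other within a sample, which needs no scaling between samples, although the efficiencies of the assays are not known. The CT of miR-532-3p exceeded that of miR-532-5p in whole cell RNA by 1.97, 2.63, 2.54 and 2.93 cycles from LSK cells to granulocytes. In cytoplasmic RNA the difference was 1.99, 2.49 and 3.34 cycles from promyelocytes to granulocytes. The order of the strands was thus the same in all 7 of these samples in which both were detected. In nuclear RNA the difference was -1.62 in LSK cells, 1.71 in promyelocytes and -3.08 in myelocytes, and in granulocytes the 3p well was undetermined while the 5p CT was 31.8. The strands therefore swapped order between nuclear samples, at a CT from 31.8 to 36.4, where nothing in the data gives the precision of a well.

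The remaining assays were near the limit of detection. miR-362-3p was detected in 8 of 12 samples: its whole cell CT was listed at 40 in LSK cells and was 33.8, 33.8 and 32.5 in the later stages. Its cytoplasmic CT was 34.3, 36.2, 31.9 and 33.1 from LSK cells to granulocytes, and among the nuclear samples it was detected in granulocytes alone, at 36.4. As with miR-532-5p, the cytoplasmic CT was lower in myelocytes and granulocytes than in LSK cells and promyelocytes, but at a level at which no change was counted.

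miR-500 was detected in 5 samples, at a CT of 37.5 in promyelocyte and 33.5 in granulocyte whole cell RNA, 34.0 in LSK and 33.2 in granulocyte cytoplasmic RNA and 35.4 in myelocyte nuclear RNA. miR-501-5p was detected in 4 samples, at 34.2 in promyelocyte and 34.4 in myelocyte whole cell RNA and at 34.5 in LSK and 36.7 in promyelocyte cytoplasmic RNA. These assays came and went between stages without an order that whole cell and cytoplasmic RNA share: miR-362-3p, miR-500 and miR-501-5p were listed at 40 in LSK whole cell RNA, while all 3 were detected in LSK cytoplasmic RNA. Of the 6 assays, 3 to 6 were detected per whole cell sample, 4 to 5 per cytoplasmic sample and 3 to 4 per nuclear sample.

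The named assays most like miR-532-5p were sought by Pearson's r over the 4 whole cell and 4 cytoplasmic samples, after subtracting the mean CT of 66 named assays from each sample. These samples share their cells of origin by stage, and r is a description. Among 137 assays with a CT under 35 in all 8 samples the highest r was 0.79 for miR-484, 0.78 for miR-301a, 0.75 for miR-16, 0.70 for miR-744 and 0.69 for miR-720. miR-188-5p, of the same cluster, was the 67th with r of 0.04, and the other cluster assays did not enter because at least 1 of their CT values was 35 or more. The order rests on the LSK cytoplasmic sample: without it, none of those 5 was among the first 5, which became miR-322*, miR-26a, miR-30c, miR-29c and miR-350, with r from 0.92 to 0.96.

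**Figure D4:**
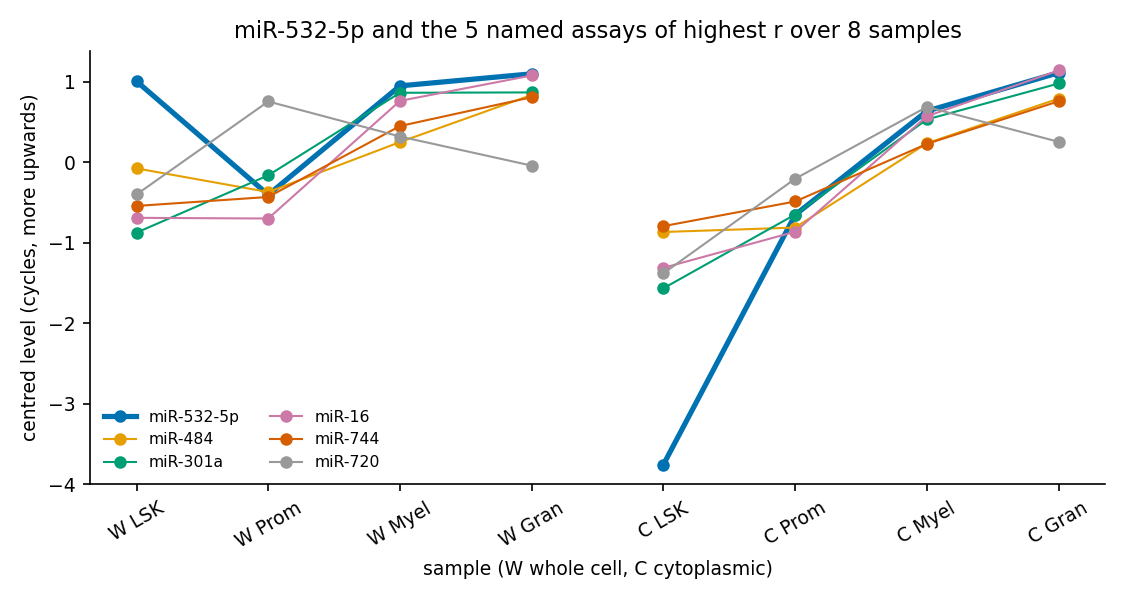
Level in cycles, after subtracting the mean CT of 66 named assays per sample and centring on each assay's mean (more template upwards), of miR-532-5p (thick line) and the 5 named assays of highest r over 4 whole cell (W) and 4 cytoplasmic (C) samples, 1 well per point. From promyelocytes on, miR-532-5p runs close to miR-301a and miR-16 in both fractions; its LSK points lie above the other assays in whole cell and below them in cytoplasmic RNA.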

How the data were processed

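TLDA RT-qPCR of 12 RNA samples was analysed. Rodent miRNA cards A and B were run by the authors on an ABI 7900HT; CT were called in SDS and RQ Manager, and the deposited values are raw CT. All 12 data columns were used, each matched to a sample by its title.

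The assays are numbered in the deposited table. Names came from the CT printed for named miRNAs in the study's supplement, where an assay was the unique match within 0.0005 cycles in all printed cytoplasmic and nuclear samples, or else from the printed whole cell differences, within 0.002 of a line with a slope of 1.71 per cycle. In all 270 of 593 assays were named, 248 by the first and 22 by the second route; 7 entries matched no assay by the first route and 2 under a repeated name were not used. Of the 6 assays, miR-532-3p was named from whole cell differences only.

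Stages could not be tested against each other, since each group holds 1 sample, and no test was made between fractions. Members, lists and limits were chosen with earlier results of these data known. The miRNAs given in the text were to be the 6 of the rule, the 5 most like miR-532-5p, those sharing a seed, markers of cell types and a list of other X-linked miRNAs; miR-574-3p and the 5 most like miR-532-5p without the LSK cytoplasmic sample were added after their values were seen. Computations used Python 3.11.15, numpy 2.4.6, pandas 2.3.3 and matplotlib 3.10.9. Sequences are from RefSeq, GRCm38.p6, which held a mature entry for 5 of the 6 assays. The mRNA arrays and the cell lines were not analysed here.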

Additional observations from a re-analysis of the deposited data

Results flagged for a closer look

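From LSK cells to promyelocytes the whole cell and cytoplasmic samples moved miR-532-5p in opposite directions: the log2 change was -0.98 in whole cell RNA, which was scaled, and 1.75 in cytoplasmic RNA, which was not, a difference of 2.73. On like scales the difference was 2.48 without scaling, 4.58 where the last 3 assays of card B gave the constant in both and 4.24 with the mean CT of the named assays. With 1 sample per group the difference was not tested.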

How the results depend on the processing

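Of 144 recomputed values of 18 changes of the miR-532 strands, from alternatives that could move them, 122 kept their direction and their side of the 2-fold and CT limits. For miR-532-5p from LSK cells to promyelocytes in whole cell RNA, the change of -0.98 passed a fold limit of 1.5, and with the mean CT of the named assays as the constant it was -1.32 and passed 2-fold. The cytoplasmic change of 1.75 in that step was not counted at a CT limit of 28, nor were the rises of miR-532-3p from promyelocytes to myelocytes in whole cell and cytoplasmic RNA and to granulocytes in whole cell RNA. At limits of 32 and 35 the fall of whole cell miR-532-3p from LSK cells to promyelocytes and the rise of cytoplasmic miR-532-3p from promyelocytes to granulocytes were counted. With the last 3 assays of card B as the cytoplasmic constant, miR-532-5p changed by 0.69 from promyelocytes to myelocytes, by -1.07 from myelocytes to granulocytes and by -0.38 from promyelocytes to granulocytes, and miR-532-3p by 0.19, -1.93 and -1.74 in the same spans. From LSK cells to granulocytes whole cell miR-532-5p lost its call with the mean CT of the named assays, at 0.23, at 1.9-fold per cycle and at a fold limit of 3, and miR-532-3p was at -0.72 with that mean; this span and the like scales of both fractions were added after seeing the data. Without scaling, whole cell miR-532-3p changed by 0.21 from myelocytes to granulocytes. Without division by 3, the nuclear:cytoplasmic ratio of miR-532-5p in LSK cells was 0.177, above 0.1; the other ratios kept their side. Of the 5 assays most like miR-532-5p, 0 stayed among the first 5 in whole cell samples alone, 0 in cytoplasmic samples alone, 2 with raw CT and 0 without the LSK cytoplasmic sample, the last chosen after seeing the data. The cause of these moves was not tested. No paired analysis was possible because the stages compared share only 1 sample number; this holds for changes between stages, while a test of fractions paired by stage could have been made and was not. At a CT above 30, detection limits miR-188-5p, miR-362-3p, miR-500, miR-501-5p and the nuclear values. It also limits miR-532-5p in LSK cytoplasmic RNA, at 31.4, on which the opposite directions of the first step rest. miR-532-3p was under 30 only in myelocyte and granulocyte whole cell RNA and in myelocyte cytoplasmic RNA.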

Other observations

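Other X-linked miRNAs were listed for comparison. Of 21 listed, 14 were named, and for 12 of these the reference places the gene on X alone. Of 8 under the CT limit in whole cell RNA from promyelocytes to myelocytes, 3 were higher by 2-fold or more and 1 was lower, beside 38.5% and 12.3% of all 122 assays; the mean CT of the named assays gave 3 higher and 5 lower, beside 27.0% and 24.6%. The 3 were miR-503 with a log2 change of 3.03, miR-322 with 2.16 and miR-652 with 2.10, and miR-20b was lower, with -1.33; both miR-532 strands, with 1.89 and 1.98, lay below the 3 that rose. From myelocytes to granulocytes in whole cell RNA 0 of the 8 reached 2-fold in either direction, as with both miR-532 strands, in a step where 10.0% of 130 assays were higher and 6.15% lower by as much. From LSK cells to promyelocytes in cytoplasmic RNA, 0 of 8 were higher and 6 were lower by 2-fold or more, beside 8.46% and 66.2% of all 130 assays, while miR-532-5p rose by 1.75. These counts depend on the scaling, as 2 of 8 were higher and 1 lower where card B gave the constant, beside 39 and 20 of all 130 assays, and 0 were higher and 3 lower with the named assays, beside 18 and 35.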
